A study of Homo sapiens with 2 samples.

Results

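Alternative 5′ splice sites (5′SS) are a choice between 2 ends of the same exon. The upstream, or distal, site ends a short form of the exon, and the downstream, or proximal, site ends a long form that keeps an extra stretch, called the extension here. The pairs described here are those whose sites lie more than 12 bases apart, chosen by the length of the long exon minus that of the short exon and by nothing else. They number 2205 of the 2620 alternative 5′SS events that the study listed, in 1246 genes, and the remaining 415 events have sites within 12 bases of each other.

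The study sequenced polyadenylated RNA from HEK293T cells, a human embryonic kidney line that expresses the SV40 large T antigen. One library came from untreated control cells. The other library came from cells given amiloride, a potassium-sparing diuretic that also alters splicing, at 300 µg/mL for 6 h. With 1 library in each of the 2 conditions there is no replicate error. The tables call the libraries by a number that no label ties to control or amiloride, so the reads per library stayed unused, and the depth of each library, the use of each site and the change with amiloride are not reported, and the cell line could not be checked against its marker genes. What follows describes which pairs were listed and what the genome holds at them. Pairs cannot stand in for replicates, and no p-values are printed. Shares carry 95% Wilson intervals, which cover counting error only and are too narrow where pairs share an exon.

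A 5′SS is first recognised by the U1 small nuclear ribonucleoprotein, whose RNA pairs with the last exon bases and the first intron bases, and U6 RNA later takes over the intron part. Nearly every site opens its intron with GT and a small minority with GC. When 2 usable sites lie in a row, the distance between them sets what changes in the mRNA. A distance that is a multiple of 3 adds whole codons, whereas any other distance shifts the reading frame, and either kind can bring in a stop codon. Transcripts with an early stop are often removed by nonsense-mediated decay.

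Whole extensions show what these events add. The pairs below hold the shortest extensions of at least 30 bases in sequence annotated as coding and never as untranslated, though some also lie in exons of transcripts without coding sequence, with both sites annotated and 1 pair per gene. Each run starts 3 exon bases before the upstream site and ends 6 intron bases after the downstream site, on the strand of the gene, and capitals mark the GT that opens the intron at each site. The first 4 keep the reading frame.

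CDK11B: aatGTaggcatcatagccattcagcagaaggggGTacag
CEP170: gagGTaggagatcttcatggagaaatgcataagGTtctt
USP19: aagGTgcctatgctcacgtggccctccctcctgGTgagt
IKZF1: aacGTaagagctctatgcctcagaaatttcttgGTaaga

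These runs lie on GRCh37 at chr1:1650761-1650799 (minus strand), chr1:243305582-243305620 (minus strand), chr3:49154864-49154902 (minus strand) and chr7:50459529-50459567 (plus strand). Each adds 30 bases. CDK11B is a cyclin-dependent kinase with a near-identical neighbouring copy, CDK11A, which makes the origin of reads at this pair uncertain. CEP170 is a centrosomal protein, USP19 a deubiquitinase and IKZF1 a zinc finger transcription factor of blood cells. In CDK11B the upstream site had the higher motif score, 5.23 against 2.06, and in USP19 the downstream site did, 9.73 against 5.22. The motif score sums, over 9 bases, the log2 ratio of each base's frequency at annotated 5′SS to an equal base frequency, so that a common site scores high. None of the 3 extensions whose reading frame could be set (CDK11B, CEP170 and USP19) held an in-frame stop.

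The next 4 shift the frame. In ZNF276 the in-frame stop TAA overlaps the GT of the upstream site and is in capitals with it.

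TMEM9: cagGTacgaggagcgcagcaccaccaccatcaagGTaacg
MFSD1: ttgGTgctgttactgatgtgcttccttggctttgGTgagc
RBM10: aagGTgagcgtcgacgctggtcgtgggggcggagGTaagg
ZNF276: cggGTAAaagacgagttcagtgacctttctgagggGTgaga

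They lie at chr1:201115862-201115901 (minus strand), chr3:158520071-158520110 (plus strand), chrX:47004882-47004921 (plus strand) and chr16:89793731-89793771 (plus strand). The first 3 add 31 bases and ZNF276 adds 32. TMEM9 is a transmembrane protein of lysosomes and endosomes, MFSD1 a lysosomal transporter, RBM10 an RNA-binding splicing regulator and ZNF276 a zinc finger protein. Both sites of RBM10 were strong, with scores of 10.15 upstream and 10.38 downstream, while the upstream site of MFSD1 scored 0.87 against 6.67 downstream. The reading frame was set for ZNF276 alone among these 4 genes, and its stop ended 4 bases into the extension.

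The 2205 listed pairs were not all different. They comprised 1676 distinct pairs of sites, since 529 events repeated a pair with another downstream exon, exon start or gene symbol, and 1 pair was listed 7 times. They started from 1367 exon starts, of which 142 had 3 or more sites. Chromosome 1 held the most, with 252 events or 11.4%. Within the events, 81 genes also had a pair within 12 bases.

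The distance ran from 13 to 3309 bases, with a median of 90 and quartiles of 39.0 and 214.0. In 362 events the extension was longer than 300 bases, and in 32 it reached 1000 bases. At the threshold itself, 67 events lay 12 bases apart and were left out, whereas 21 events lay 13 bases apart and 56 lay 15 apart. The median short exon had 130.0 bases and the median long exon 261.0. Alternative 3′ splice sites more than 12 bases apart, of which the study listed 1806, had a median distance of 66 bases.

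Distances of 15, 24, 33 and 48 bases were the most common, with 56, 39, 38 and 35 events in turn. All 4 are multiples of 3. The most common distance that was not one was 59 bases, with 25 events. Counted as distinct pairs, the distance of 15 bases had 42 and that of 59 bases had 17.

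The longest extensions were coding in at least 1 annotated transcript. In BRCA1, a DNA repair gene and tumour suppressor, the extension of 3309 bases (chr17:41243452-41246760, minus strand) was most of the gene's largest coding exon, and the upstream site left a short exon of 117 bases. The sites read aggGTagtt upstream and tagGTattg downstream and scored 4.73 and 4.37, both low, and 7 and 16 annotated transcripts used them. PTPRZ1, a receptor tyrosine phosphatase, followed with 2580 bases (chr7:121651364-121653943, plus strand), and PCDHGC3, a clustered protocadherin, with 2400 bases (chr5:140855714-140858113, plus strand). TRO, which encodes the adhesion protein trophinin, had 2321 bases and a GC at its upstream site, and STOX1, a winged-helix protein, had 2159. In all 5 the canonical transcript used the downstream site. The extensions of BRCA1, PTPRZ1 and PCDHGC3 kept the reading frame and held no in-frame stop, while that of TRO had a stop that ended 2310 bases in.

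Of the pairs exactly 13 bases apart, the first 5 genes in genome order were C1D, FAM193A, HELQ, TMEM161B and EPB41L2. C1D acts with the nuclear exosome, HELQ is a DNA helicase and EPB41L2 belongs to the band 4.1 family of membrane skeleton proteins. The canonical transcript used the upstream site in all 5. An in-frame stop fell inside the extension in FAM193A, HELQ and TMEM161B, ending 12, 12 and 4 bases in. C1D and EPB41L2 had their extensions in 5′ untranslated sequence, and the downstream site of HELQ was in no annotated transcript.

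The distance was a multiple of 3 in 961 of 2205 events, or 43.6% (41.5 to 45.7), against the 33.3% of an equal split over the 3 remainders. Remainders of 1 and 2 took 29.2% and 27.2%. The share differed with where the annotation placed the extension. Among the 575 events whose extension was annotated as coding and never as untranslated, 363 or 63.1% (59.1 to 67.0) had a multiple of 3. This class leaves out extensions in which an annotated coding sequence starts or ends. Where the frame was known, 55.5% of frame-shifting and 17.9% of frame-keeping extensions held a stop, so part of the 63.1% is built into the class. All 1263 extensions coding in any transcript had 49.6% (46.9 to 52.4). Among the 786 annotated only as 5′ untranslated among messenger RNAs, the share was 36.5% (33.2 to 39.9), and among the 107 found only in transcripts without coding sequence it was 35.5% (27.1 to 44.9). The 688 events whose extension was annotated both as coding and as untranslated had 38.4% (34.8 to 42.1). The 2 annotations could come from different transcripts, or from the same transcript where its coding sequence starts or ends inside the extension. The interval of this mixed class excluded 33.3%, and those of the 5′ untranslated and non-coding classes included it.

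**Figure D1:**
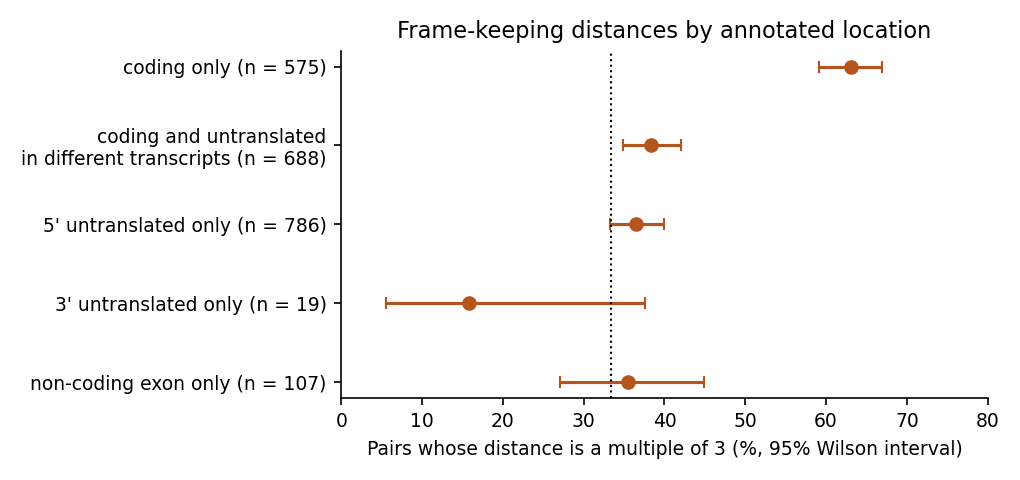
Share of pairs whose distance is a multiple of 3, in percent with its 95% Wilson interval, by where the annotation places the extension (the number of pairs is in each label, and the dotted line marks 33.3%). Coding-only extensions (never untranslated in a messenger RNA) stand at 63.1%, and no other class passes 38.4%. Part of this gap is built in, since the coding-only class leaves out extensions in which a coding sequence starts or ends. The class labelled as in different transcripts can also hold both annotations from the same transcript.

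Among coding extensions this share differed by whether a site ended a first exon in any transcript. It was 43.5% (39.9 to 47.3) of 687 coding extensions where a site ended the first exon of some transcript and 56.9% (52.9 to 60.9) of the other 576. Events within 12 bases had 58.1% (51.8 to 64.1) of 241 coding extensions in frame and 33.3% (26.8 to 40.6) of 174 others. For alternative 3′ splice sites over 12 bases apart, the share without regard to location was 47.2%.

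Exons that are first in some transcript were common among the widely spaced pairs. Such an exon can be internal in other transcripts, as in UPF1, whose exon was also listed as skipped. In 1537 events (69.7%, 67.7 to 71.6) a site ended the first exon of at least 1 annotated transcript, against 56.6% (51.8 to 61.3) of the close pairs. Counted as distinct pairs, the share of the widely spaced pairs was 67.5% (65.2 to 69.7). These first-exon events had a median distance of 112.0 bases and an extension GC content of 61.7% ± 10.8 (SD over events), whereas the other 668 events had a median of 59.0 bases and 51.1% ± 11.7. The share of events with a first exon was 59.7% at distances of 13 to 30 bases and 80.7% above 300 bases.

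Base composition stepped down from before the upstream site to after the downstream site. Over all 2205 events the mean GC content was 59.7% ± 11.6 in the 100 bases before the upstream site, 58.5% ± 12.1 in the extension and 55.1% ± 14 in the 100 bases after the downstream site. The mean of the extension was closer to the first window than to the last, and each difference was smaller than the spread over events. The 100-base windows were not cut where an exon or intron ended, and the short exon had a first quartile of 85.0 bases. The first window therefore often held sequence from before the exon, so these values do not compare exon with intron cleanly. GGG, the core of the G runs that act as intronic splicing enhancers, occurred 3.38 times per 100 bases of extension. In equally long stretches after the downstream site it occurred 3.27 times per 100 bases. These stretches were not cut at the intron's end, so they run past introns shorter than the extension. In BRCA1 the stretch had 3309 bases and the intron 402. At least 1 GGG was present in 73.4% (71.5 to 75.2) of extensions and in 77.9% (76.1 to 79.6) of those stretches, so the 2 measures differ in direction. A GT site scoring at least as high as the weaker of its pair lay within the extension in 30.02% (28.1 to 32.0) of events. For the equally long downstream stretches the share was 36.6% (34.6 to 38.6).

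GT opened the intron at both sites in 2051 events (93.0%). In 88 events (4.0%) the upstream site had GC and the downstream site GT, and in 60 (2.7%) the order was the opposite. The close pairs had GC upstream in 35 of 415 events (8.4%) and downstream in 8 (1.9%). The 150 GC sites carried a more uniform context than the GT sites did. G stood at the last exon base in 95.3% of them and at the fifth intron base in 96.7%, compared with 79.4% and 73.1% at the upstream sites of the GT pairs. In 4 events both sites read CT, neither GT nor GC. They made up 2 pairs, in LOC727751 and FAM156A, which are named after their values were seen. None of these sites was annotated.

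Among the GT pairs the sites resembled each other. The median score was 6.72 (quartiles 5.09 and 8.21) upstream and 7.003 (5.19 and 8.38) downstream, both below the median of 8.05 over 300873 annotated GT sites. The difference within a pair, upstream minus downstream, had a median of -0.20 with quartiles of -2.10 and 1.63. The upstream site scored higher in 948 of 2051 pairs, or 46.2% (44.1 to 48.4), and 21 pairs were tied. In the close pairs this share was 47.7% (42.6 to 52.8). By distance the share was 38.7% (34.0 to 43.6) at 13 to 30 bases, 47.4% (43.7 to 51.1) at 31 to 100 and 51.0% (47.0 to 54.9) from there to 300. Above 300 bases it was 43.8% (38.6 to 49.1), so it did not climb steadily with distance.

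The most frequent sites show what a typical member looks like. With the GT in capitals they were as follows, and each is shown because it recurred most often over both positions.

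most frequent site: gagGTgagg
second: cagGTgagg
consensus of annotated sites: cagGTaagt

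The first occurred at 27 upstream and 21 downstream sites and the second at 23 and 20. Both have G in place of A at the third intron base and end in G. The full consensus occurred at 0 of 2051 upstream sites, with an upper Wilson limit of 0.187%, and at 1 downstream site, whereas 0.764% of annotated sites held it. At least 7 of the 9 bases matched the consensus at 20.5% of upstream and 23.2% of downstream sites, compared with 40.8% of annotated sites. At the third intron base A was found in 41.9% of upstream and 45.4% of downstream sites. The annotated sites had 58.2% there.

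The widest gaps between the sites of a pair came from sites far from the consensus. Among pairs with GT at both sites and both annotated, the largest lead of the upstream site was in PSMC3IP, a recombination factor, where it scored 9.63 and the downstream site -4.39. ZNF302 (7.85 against -2.35), the chromatin remodelling subunit ACTL6A (10.96 against 3.05), EMC6 (9.07 against 1.30) and the RNA editing enzyme ADAR (6.53 against -1.22) followed. In ADAR the canonical transcript nevertheless used the weak downstream site, acaGTtaag, as 18 annotated transcripts did, while 3 used gagGTaacc upstream. The extension of 78 bases (chr1:154562660-154562737, minus strand) kept the frame.

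In the other direction ATP5A1, the alpha subunit of mitochondrial ATP synthase, came first. Its upstream site gacGTtcca scored -5.06 and its downstream site aagGTaggt 10.20, and 1 and 10 annotated transcripts used them. FAM96B (0.56 against 11.88), NEMP1 (-4.44 against 6.36), C8orf59 (-2.56 against 8.21) and LPPR2 (1.36 against 11.30) were next. The canonical transcript used the stronger, downstream site in all of these but C8orf59, where it used neither site.

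Most of the sites were known. Both were the end of an annotated exon in 2038 events (92.4%, 91.2 to 93.5), the downstream site alone in 112 (5.1%), the upstream site alone in 42 (1.9%) and neither in 13 (0.6%). The close pairs had both annotated in 86.5% (82.9 to 89.5). Both junctions to the listed downstream exon were annotated in 1480 events (67.1%), and in 77.5% (75.4 to 79.4) of distinct pairs. The canonical transcript, the 1 that the annotation picks per gene, used only the downstream site in 991 events (44.9%) and only the upstream site in 723 (32.8%). Canonical transcripts used both sites in 94 events (4.3%) and neither in 397. Where the same transcript uses both, the sites end different exons of it, and the long form keeps the intron between them. Where just 1 GT site was canonical, it outscored its partner in 971 of 1606 pairs, or 60.5% (58.0 to 62.8), and in 68.4% (63.0 to 73.3) of 313 close pairs. Therefore the other site had an equal or higher motif score in many pairs.

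The reading frame at the upstream site could be set from a protein-coding transcript in 1010 events. An in-frame stop lay within the extension in 353 of them, or 34.95% (32.1 to 37.9). With the frame taken from canonical transcripts only, the share was 56.2% (51.8 to 60.4) of 511. In 453 events (44.9%) the extension kept the frame and held no stop, which is an insertion of whole codons. A further 99 (9.8%) kept the frame but held a stop, 254 (25.1%) shifted it with a stop, and 204 (20.2%) shifted it with no stop inside the extension. The stop ended a median of 18 bases in. Stops were found in 17.9% (14.96 to 21.4) of frame-keeping extensions and in 55.5% (50.9 to 59.9) of frame-shifting ones.

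This gap was present at every length. At 13 to 30 bases a stop was found in 5.04% of 139 frame-keeping and 43.6% of 78 frame-shifting extensions, and at 31 to 100 bases in 10.2% of 215 and 41.2% of 170. Between these and 300 bases the shares were 30.1% and 64.7%, and above 300 bases 46.2% and 83.1%. Extensions annotated as coding and never as untranslated, 63.1% of them multiples of 3, held a stop in 4.91% of 468. Those only 5′ untranslated held one in 77.2% of 79. An extension that a transcript translates cannot hold a stop in that frame, so part of the gap is also built into the annotation. The share also followed the annotation. It was 7.09% (5.01 to 9.94) of 423 events whose canonical site was downstream and 53.8% (49.2 to 58.3) of 457 whose canonical site was upstream. An extension that the canonical transcript translates cannot hold an in-frame stop in that frame, so part of this contrast is built into the annotation. A transcript annotated for nonsense-mediated decay used a site in 979 events (44.4%, 42.3 to 46.5). The close pairs had 47.95% (43.2 to 52.8), so the share was no higher among the widely spaced pairs. This count takes in a transcript at either site, so it does not tie decay to the long form. Whether decay differs between the short and long forms was not tested.

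The same exons were often listed with other kinds of event. The short or long form appeared, with both ends identical, in the skipped-exon table in 606 events (27.5%, 25.7 to 29.4), among mutually exclusive exons in 421 (19.1%), at a retained intron in 289 (13.1%) and among alternative 3′ splice sites in 58 (2.6%). At least 1 of these 4 tables held it in 843 events (38.2%, 36.2 to 40.3). The close pairs had 37.1% (32.6 to 41.9) in the skipped-exon table and 4.10% (2.57 to 6.46) at a retained intron. The extension overlapped a listed retained intron in 271 events (12.3%), whose median distance was 287.0 bases. Events shared with the skipped-exon table had a median distance of 59.0 bases and a multiple of 3 in 52.1% (48.2 to 56.1), compared with 107.0 bases and 40.3% (38.0 to 42.8) for the rest.

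Several genes were listed many times. ATP5J, a subunit of the stalk of mitochondrial ATP synthase, had 20 events from 1 exon start (chr21:27107164-27107965), formed by 4 upstream and 4 downstream sites and 2 downstream exons, at distances of 50 to 634 bases. METTL23, a methyltransferase, had 16 events and TMEM9 had 14, the latter with 13 distinct pairs. SSBP1, the mitochondrial single-stranded DNA-binding protein, had 12 events at 18 to 183 bases, and the distance was a multiple of 3 in all 12. These events were 6 distinct pairs of 3 upstream and 3 downstream sites, repeated over 2 downstream exons. OXLD1 had 11 events. ZBTB8OS, also called archease, which helps to ligate tRNA, had 11 events from only 2 pairs combined with 6 downstream exons. C11orf74 and CTSL, the lysosomal protease cathepsin L, had 10 each. A site ended a first exon in every event of these genes but 3 of TMEM9.

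Genes that carry out or regulate splicing were counted in 4 lists. Of 24 genes for 5′SS recognition that appear in any of the 5 tables, SNRPD3, a core Sm protein of U1, alone had a widely spaced pair, with 14 bases between sites in its 5′ untranslated region. The upstream site of this pair was in no annotated transcript. No SR protein or TRA2 gene of 13 had a widely spaced pair, which allows a share of up to 22.8% (upper Wilson limit). Among 44 further splicing regulators and kinases 3 did, namely the kinase CLK1 and the RNA-binding proteins RBM10 and RBM14. The CLK1 extension had 1558 bases and the RBM14 extension 1354. In CLK1 both sites were canonical, and a stop ended 6 bases into the extension. Over all genes in the tables the share was 10.2% (1246 of 12254).

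The hnRNP genes, which encode abundant RNA-binding proteins that often oppose SR proteins, had members in 6 of 25 cases (24.0%, 11.5 to 43.4). Their 12 events came from 7 distinct pairs. All 12 were in coding sequence, compared with 57.3% of all 2205 events, and 11 were a multiple of 3 apart, compared with 49.6% of all coding extensions. None of the 11 with a known frame held a stop. HNRNPC added 39 bases (chr14:21699117-21699155, minus strand), which separates its C1 and C2 proteins. Its sites cggGTcagt and cagGTccgg scored 6.25 and 4.30. HNRNPH3 added 45 bases, HNRNPU 57 and HNRNPM 153, each in frame.

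The cell death genes included the textbook case of this event. In BCL2L1 the upstream site yields the short, death-promoting Bcl-xS and the downstream site the long, protective Bcl-xL. The extension had 189 bases (chr20:30309458-30309646, minus strand), was coding, kept the frame and held no stop. The upstream site cagGTagtg scored 5.86 and the downstream site tggGTaaga 7.45, and 2 and 12 annotated transcripts used them. In all, 7 of 25 cell death genes had a member (28.0%, 14.3 to 47.6). BCL2L11, which encodes the death activator Bim, added 270 bases and APAF1, the apoptosome scaffold, 33, both in frame. BCL2L12 added 49 bases and shifted the frame. LMNA, another well-known 5′SS choice, had no widely spaced pair among the events used here.

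DNA repair genes were members in 17 of 66 cases (25.8%, 16.7 to 37.4), with 41 events from 26 distinct pairs. Beside BRCA1, the rule named APEX1, ERCC2 and ERCC3. APEX1, the main abasic site endonuclease, used a GC upstream site, acggcaagc, 61 bases before cgaGTaggg in untranslated sequence. The helicase ERCC2 had 403 bases, with both sites canonical and a stop that ended 4 bases in, and the helicase ERCC3 had 62. For nonsense-mediated decay itself 3 of 16 genes were members (18.8%, 6.59 to 43.0). The helicase UPF1 added 33 bases in frame without a stop, whereas the extension of RNPS1 had 122 bases and a stop that ended 4 bases in. That extension was annotated as 5′ untranslated and never as coding.

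Translation genes had members at the rates of other genes or with intervals that include them. Cytosolic ribosomal protein genes had 7 of 77 (9.09%, 4.47 to 17.6), and the extensions of RPL17, RPL38 and RPL6 lay in 5′ untranslated regions, at 17, 35 and 176 bases. Mitochondrial ribosomal protein genes had 12 of 70 (17.1%, 10.1 to 27.6). Among them MRPL11 added 78 coding bases in frame, while MRPL10 with 149 bases and MRPL21 with 13 held a stop. Translation initiation factors had 4 of 48 (8.33%, 3.29 to 19.6). EIF4B added 15 bases in frame, and the upstream sites of EIF1AD (ccggcaagt) and EIF4ENIF1 (aaggcaagt) were GC sites.

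Of the 65 genes for histone modifying enzymes, 9 were members (13.8%, 7.46 to 24.3), and 14 of their 15 events, from 12 distinct pairs, were coding. The methyltransferase EZH2 added 15 bases and the acetyltransferase KAT6B 327, both in frame. The acetyltransferase KAT5 added 166 bases and the demethylase KDM2A 452, and both shifted the frame. Zinc finger genes had 41 of 356 (11.5%, 8.60 to 15.3), with 17 of 67 events a multiple of 3 apart, beside 43.6% of all events. ZNF202 had 24 bases, a multiple of 3, and ZNF146, ZNF155 and ZNF180 had 41, 91 and 77, which are not. Each of these extensions was annotated as 5′ untranslated, and that of ZNF180 also as coding. No reading frame was set for them. Solute carriers had 19 of 232 (8.19%, 5.31 to 12.4) and a median distance of 211.0 bases. SLC23A3 and SLC22A17 added 24 and 54 coding bases in frame, and SLC35A2, a UDP-galactose transporter, had 352 bases with a stop that ended 8 bases in.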

How the data were processed

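PolyA+ RNA from HEK293T cells was sequenced by the authors as paired-end reads, with 1 library per condition. Per the labels' processing notes the tools include STAR 2.5.1 and the build is hg19 (GRCh37). The authors ran rMATS and deposited 5 event tables. Here their coordinate and form length columns were used. The 30 columns of reads or inclusion levels per library were not used in any step, since they number the libraries without naming a condition, and neither were the authors' comparison columns (p-value, FDR and inclusion level difference). No depth is given for this reason. The length of the inclusion form was that of the skipping form plus the distance in 100% of events.

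Coordinates are 1-based on GRCh37. Sites, frames and locations came from GENCODE release 44 lifted to GRCh37, read with Python 3.11.15 and pysam 0.24.0. The 9-base score used 3 exon and 6 intron bases with a pseudocount of 0.5 and was tested on simulated sites. The frame came from the canonical transcript where it qualified, otherwise from the first protein-coding transcript by identifier. Of 1246 gene symbols, 1153 matched a current symbol, 81 an older one and 12 none.

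Members and gene lists were chosen with earlier results of these data known. Genes were named by rule: the 5 longest and 5 shortest extensions, the 5 largest score differences each way among annotated GT pairs, up to 4 genes per list (annotated pairs first, then by symbol), BCL2L1, LMNA, up to 8 genes with at least 4 events, and, for printed extensions, the 4 shortest of 30 to 300 coding bases in each frame class, 1 pair per gene. One gene that the rule names is not reported here.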

Additional observations from a re-analysis of the deposited data

How the results depend on the processing

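Of the 21 alternatives tried on the main results, counting distinct pairs once, requiring annotated sites or GT at both, another pseudocount (10), weights from canonical transcripts and a match on the exon's start alone left those results within their intervals or, for the number of pairs, within 1.5 times. Other values could leave their intervals when distinct pairs were counted once, such as both junctions annotated (77.5%) and a site ending a first exon (67.5%). Among the 21 alternatives, the following moved. The share of distances that are a multiple of 3 was 49.6% in annotated coding extensions. Both sites were annotated in 72.6% when only the basic transcript set was used. An in-frame stop was found in 56.2% of 511 events when the frame came from canonical transcripts only, a set that leaves out upstream sites absent from them, and in 28.3% of 876 events whose extension was annotated as coding. Mean GC content was 59.5% in extensions of 50 bases or more. The last coding restriction and a restriction to genes with fewer than 4 events (44.5% multiples of 3) were chosen after seeing the data. No paired analysis was possible because no replicates exist and no test was made. Depth can limit which events are listed, and this was not tested.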
